A study of Schizosaccharomyces pombe with 4 samples.

Results

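Coding genes longer than 5 kb are the rare long transcription units of fission yeast, Schizosaccharomyces pombe. They are described here by the Rad52 chromatin immunoprecipitation (ChIP) signal over their bodies, ends and flanks. They were chosen by annotated gene span alone, above 5000 bp in the reference annotation, on the part of chromosome I where array and reference coordinates match and on all of chromosomes II and III, without rif1, rad3, rga2 and tlh1. The rule gave 118 genes of 5113 coding genes, with 47 on chromosome I, 45 on II and 26 on III. Their spans ran from 5006 to 15232 bp, with a median of 5808 bp. Of the 118, 60 had a coding span above 5000 bp, and 58 passed the limit only through annotated untranslated ends. In all, 117 were measured, with 9 to 55 probes and a median of 21, and tlh2 had no probe.

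The study hybridised ChIP and input DNA of the same cells on 2-colour tiling arrays, with probes at a median spacing of 265 bp. The tested cells carried cdc25-22, rif1Δ and rad3Δ (2 arrays), and the cells they were set against carried cdc25-22 and rif1Δ (2 arrays), so the temperature-sensitive cell cycle allele and the loss of Rif1 were common to both. All cells were held for 4 h at 36.5 °C, released at 25 °C and then treated with 6 mM hydroxyurea, a drug that slows replication forks by lowering nucleotide pools. The labels do not state whether the 2 replicates of a strain came from different cultures, and a p-value here reflects array-to-array spread that may be purely technical. Pairs of values are given as replicate 1 and replicate 2.

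Rad52 is a homologous recombination protein that acts on single-stranded DNA at broken or stalled forks. Rad3 is the fission yeast ATR kinase, the head of the checkpoint that protects forks under hydroxyurea and holds back later origins, and Rif1 is a separate brake on origin firing. Replication in this yeast starts mostly at A+T-rich stretches between genes. The distance of the long genes from such sites was not measured here. The comparison shows how the Rad52 signal over long genes differs when Rad3 is missing in addition to Rif1.

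Each value is a log2 ratio of ChIP over input signal with the array median over chromosomes I to III set to 0, so it is a level relative to the rest of the genome on that array. An array over a population of cells cannot tell apart fewer cells with Rad52 bound and less Rad52 per cell. No ChIP without Rad52 was analysed here, and its part in the signal was not tested. Median processed signals ran from 1015 to 1105 for ChIP DNA and from 995 to 1087 for input DNA, over median backgrounds of 38 to 108. Replicate 2 of rif1Δ rad3Δ had a derivative log ratio spread, a measure of probe noise in the file headers, of 0.452, against 0.311 to 0.321 on the other arrays. The probe values had SDs of 0.58 and 0.65 in rif1Δ rad3Δ, against 0.43 and 0.44 in rif1Δ. Probes of rif1 lay at 0.864% to 3.48% of the median signal on all arrays. For rad3 probes the ChIP signal was 4.46% and 1.19% of its median in rif1Δ rad3Δ, against 66.5% and 77.7% in rif1Δ. The input of the rif1Δ rad3Δ arrays, which the labels give as cdc25-22, held rad3 at 1.80% and 0.883% of the median and goes against that label.

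Stretches picked by the signal in rif1Δ rad3Δ are shown first. The upstream ones are the 250 bases before the annotated start of SPAC57A7.05 and gcn1, both among the 3 members whose 5′ flank stood highest above the body in rif1Δ rad3Δ, and the last is 250 bases in the middle of the lowest 1 kb bin of any member, inside the coding sequence of mdn1. All are read 5′ to 3′ on the gene's strand from RefSeq ASM294v3. Capitals mark runs of 7 or more A or T (AAAAAAA or TTTTTTT on the strand shown). The upstream stretches lie at chrI:1540873-1541122 (minus strand) and chrI:2227391-2227640 (minus strand), and the mdn1 stretch at chrIII:1911376-1911625 (plus strand).
SPAC57A7.05: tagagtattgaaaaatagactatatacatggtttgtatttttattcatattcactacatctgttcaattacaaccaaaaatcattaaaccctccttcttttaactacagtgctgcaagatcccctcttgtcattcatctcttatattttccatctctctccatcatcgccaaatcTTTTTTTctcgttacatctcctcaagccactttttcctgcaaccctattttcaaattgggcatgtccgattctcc
gcn1: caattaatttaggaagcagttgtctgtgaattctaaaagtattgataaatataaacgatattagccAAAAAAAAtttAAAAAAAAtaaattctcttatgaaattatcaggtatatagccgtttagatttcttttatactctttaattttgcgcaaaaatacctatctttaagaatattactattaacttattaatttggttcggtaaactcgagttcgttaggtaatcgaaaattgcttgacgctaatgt
mdn1: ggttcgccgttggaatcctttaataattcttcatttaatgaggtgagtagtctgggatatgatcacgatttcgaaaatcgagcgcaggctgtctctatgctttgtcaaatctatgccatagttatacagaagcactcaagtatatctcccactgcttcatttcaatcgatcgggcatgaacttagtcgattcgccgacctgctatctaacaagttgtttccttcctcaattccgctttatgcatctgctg
The upstream stretches of SPAC57A7.05 (an uncharacterised protein) and gcn1 (a regulator of translation initiation) were 64.8% and 74.4% A+T, and the mdn1 stretch was 57.6%. Such a run stood in the 250 bases upstream of 42 of the 118 members (35.6%) and of 33.3% of the other 4246 coding genes on the part of the genome analysed. It stood in the middle 250 bases of 13 of 118 members and of 664 of the 4231 other genes with such a stretch (15.7%). A match is a description of letters and says nothing about a factor.

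In rif1Δ rad3Δ cells the signal sank from the ends of long genes towards their interiors, and in rif1Δ cells it stayed near the array median throughout. Within 500 bp of the nearest gene end, the mean over 117 members was 0.01 and -0.02 in rif1Δ rad3Δ, against 0.04 and -0.03 in rif1Δ. At 1000 to 1500 bp from the nearest end it was -0.20 and -0.16 in rif1Δ rad3Δ, against 0.02 and 0.03 in rif1Δ. At 2000 to 2500 bp it was -0.33 and -0.32 in rif1Δ rad3Δ, against -0.01 and -0.01 in rif1Δ. From 500 bp inwards the values of both rif1Δ rad3Δ arrays lay below those of both rif1Δ arrays at every 500 bp step, down to the 25 genes that reach 3500 bp, where they were -0.39 and -0.48, against 0.02 and 0.05. The A+T content around the probes was 64.4% in the outermost 500 bp and 61.8% to 62.3% at all steps beyond. The next shorter length class (596 genes up to 5000 bp) showed a similar fall. Within 500 bp of the nearest end its mean was -0.00 and -0.02 in rif1Δ rad3Δ, against 0.01 and -0.05 in rif1Δ. At 1000 to 1500 bp it was -0.19 and -0.18 in rif1Δ rad3Δ, against -0.03 and 0.00 in rif1Δ. At 2000 to 2500 bp, for 116 of its genes, it was -0.30 and -0.25 in rif1Δ rad3Δ, against 0.00 and -0.02 in rif1Δ. The fall was thus not particular to members. These profiles are means over genes and carry no test.

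**Figure D1:**
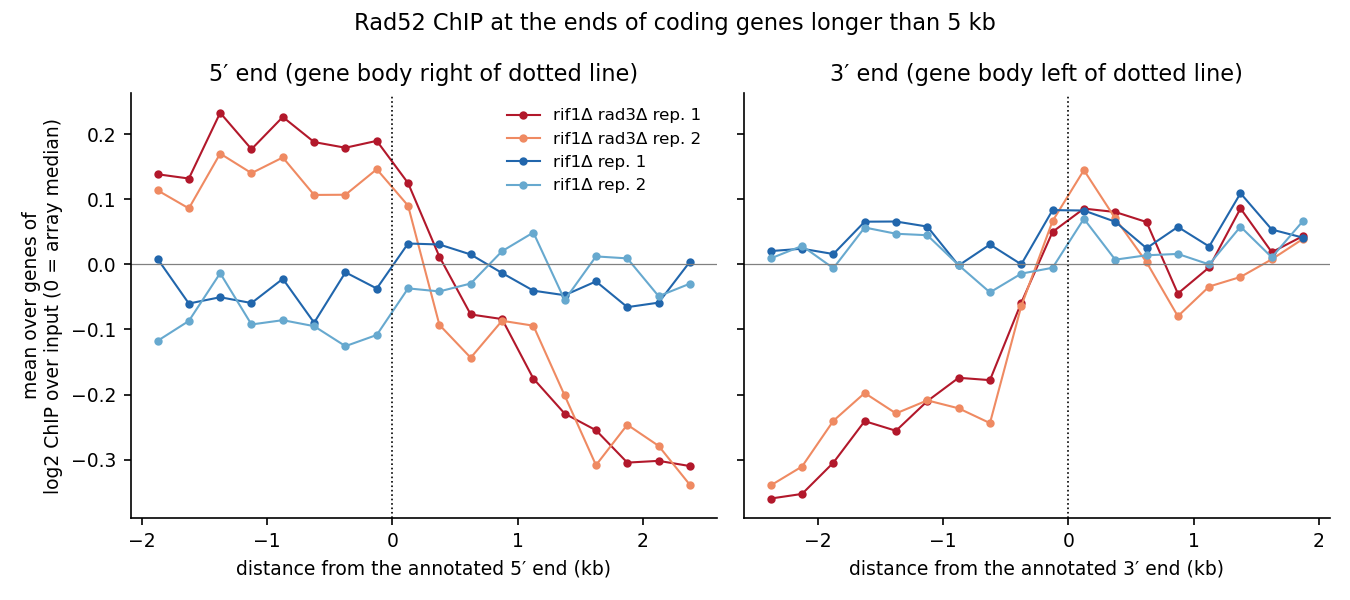
Mean log2 ChIP over input (0 is the array median) in steps of 250 bp around the annotated 5′ end (left) and 3′ end (right) of the long genes, one line per array, with the gene body right of the dotted line in the left panel and left of it in the right panel. The rif1Δ rad3Δ lines fall from about the level of the flanks to between -0.31 and -0.36 at the innermost step, and the rif1Δ lines stay within 0.13 of 0.

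Both ends of the long genes took part in this shape. On the 5′ side, the 250 bp just before the gene start had 0.19 and 0.15 in rif1Δ rad3Δ, against -0.04 and -0.11 in rif1Δ. The signal stayed at 0.09 to 0.23 out to 2000 bp upstream in rif1Δ rad3Δ, against -0.13 to 0.01 in rif1Δ. On the 3′ side, the 250 bp just after the gene had 0.09 and 0.14 in rif1Δ rad3Δ, against 0.08 and 0.07 in rif1Δ, so the strains differed by less there. With each body cut into 10 equal stretches, the lowest was the seventh from the 5′ end, with -0.36 and -0.32 in rif1Δ rad3Δ, against -0.02 and 0.01 in rif1Δ. In the next shorter class the lowest was stretch 6, with -0.22 and -0.21 in rif1Δ rad3Δ, against -0.02 and 0.01 in rif1Δ. In that class the 250 bp before the start had 0.09 and 0.02 in rif1Δ rad3Δ, against -0.07 and -0.16 in rif1Δ. Its 250 bp after the gene had 0.06 and 0.12 in rif1Δ rad3Δ, against 0.09 and 0.04 in rif1Δ.

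Over whole bodies, the median of the 117 members was -0.25 and -0.19 in rif1Δ rad3Δ, against -0.00 and -0.03 in rif1Δ. Over all 3886 coding genes tested, it was -0.01 and -0.03 in rif1Δ rad3Δ, against -0.01 and -0.03 in rif1Δ. Against the array median, 57 members were lower in rif1Δ rad3Δ (29.1% of all genes were) and 19 were higher (25.1% of all genes), by limma with a Benjamini-Hochberg adjusted p below 0.05 over all genes. In rif1Δ, 4 members were higher (5.35% of all genes) and 0 lower (2.19% of all genes), while 23 members had an unadjusted p below 0.05. Without either rif1Δ array fewer than these 4 were called higher, and fewer of all genes were too.

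**Figure D2:**
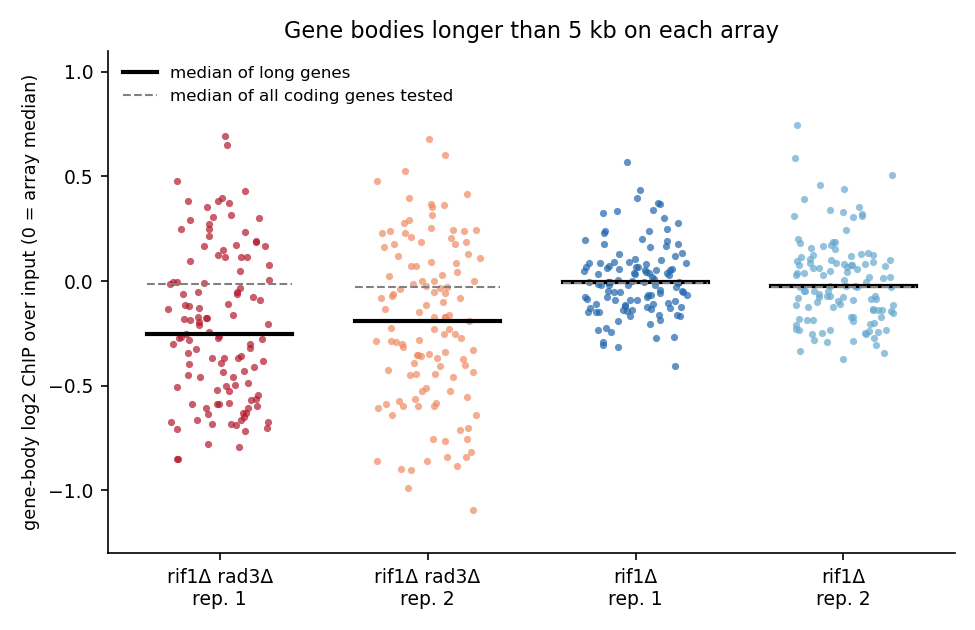
Gene-body log2 ChIP over input of the 117 long genes on each array, 1 point per gene, with rif1Δ rad3Δ left and rif1Δ right. Solid bars are medians of the long genes, at -0.25, -0.19, -0.00 and -0.03 from left to right, and dashed bars are medians of all coding genes tested.

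Between the strains, 34 members were lower in rif1Δ rad3Δ, against a background of 13.4% of all genes, and 2 were higher, against 12.1% of all genes. The 34 make 29.1% of the members, and 31 of them were also called below the array median in rif1Δ rad3Δ. The median difference was -0.22 over members and -0.03 over all genes. A long gene has more probes than a short one, and among the 1578 genes with at least 8 body probes the share called lower was 22.2%, against 38.5% of members in that fit. The arrays of the strains did not overlap, with rif1Δ rad3Δ lower, for 69 members (37.4% of all genes) and with rif1Δ rad3Δ higher for 22 (30.7% of all genes). Without either rif1Δ array fewer members were called lower, and fewer of all genes were too. The median difference of members was then -0.21 without replicate 1 and -0.22 without replicate 2, against -0.03 and -0.04 over all genes. The count of 34 became 12 with the arrays scaled to one spread, where 4.45% of all genes were lower. The 8 genes atg2, brr2, chc1, dnf2, lvs1, nup189, spo15 and tcb3, picked after their values were seen, were lower under all of the array-level alternatives and with each array left out.

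Replicate 1 of both strains shared a slide, and within it the median difference of members was -0.24 (-0.03 over all genes), with 84 of 117 below 0. Between the replicate 2 arrays, which lay on slides of their own, it was -0.20 (-0.04 over all genes), with 80 of 117 below 0. Of the differences between strain means, 53.8% lay below 0 over all genes. The input signal over the same bodies differed between strains for 0 of 3886 genes by limma (123 genes and 0 members at an unadjusted p below 0.05). The median input difference was -0.01 over members and 0.04 over all genes, and for the 34 lower members it ran from -0.13 to 0.22, with a median of -0.02.

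The largest fall was in chc1, the heavy chain of clathrin, which coats vesicles. Its body (chromosome I, 3339090 to 3344445) had -0.80 and -0.75 in rif1Δ rad3Δ, against 0.32 and 0.18 in rif1Δ. The difference of -1.03 ± 0.12 (SE; limma, adjusted p = 0.0058) put the ratio in rif1Δ rad3Δ at 49.1% of that in rif1Δ. Clathrin heavy chain was thus above the array median on both rif1Δ arrays and far below it on both others.

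The autophagy gene atg2 (chromosome II, 234477 to 239599) had the lowest body of all members in rif1Δ rad3Δ, at -0.85 and -1.09, against -0.11 and -0.24 in rif1Δ (difference -0.80 ± 0.13 SE; limma, adjusted p = 0.0105). The pseudouridine synthase gene pus7 had -0.56 and -0.84 in rif1Δ rad3Δ, against 0.44 and -0.19 in rif1Δ, so its rif1Δ arrays spread widely. Its coding part spans 2043 bp of its 5015 bp, and most of the rest overlaps med14, a gene on the other strand. dnf2, a phospholipid-transporting ATPase, had -0.71 and -0.82 in rif1Δ rad3Δ, against -0.02 and -0.03 in rif1Δ. In tcb3, a tricalbin, the values were -0.69 and -0.57 in rif1Δ rad3Δ, against 0.03 and 0.12 in rif1Δ. Apart from pus7, replicates of these genes lay closer to each other than the strains did. The genes were picked as the largest called falls with arrays that do not overlap, so this follows in part from the choice.

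lvs1, the beige protein gene, and esf2, a U3 snoRNP-associated gene, overlap over 3899 bp and share 14 probes, so their falls of -0.70 and -0.66 are not separate measurements. Overlaps of this kind also tie spp42 to sea2 (8 shared probes), msw1 to peg1 (16) and fab1 to prp17 (29), and the last pair has the same body values. Some members also overlap genes outside the set, as mcm5 does trk1, so their body values are not theirs alone. The nucleoporin gene nup189 had -0.63 and -0.70 in rif1Δ rad3Δ, against -0.01 and 0.04 in rif1Δ.

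The 2 longest genes were among the 10 largest falls. sib1, the ferrichrome synthetase (15232 bp), had -0.64 and -0.90 in rif1Δ rad3Δ, against -0.04 and -0.14 in rif1Δ, a difference of -0.68 ± 0.13 (SE; limma, adjusted p = 0.0146). mdn1, which encodes the ribosome assembly ATPase midasin (14352 bp), had -0.78 and -0.86 in rif1Δ rad3Δ, against -0.05 and -0.21 in rif1Δ, a difference of -0.69 ± 0.12 (SE; limma, adjusted p = 0.0117). Of 15 bins of 1 kb inside mdn1, 14 were called below the array median in rif1Δ rad3Δ by limma and 10 were called lower than in rif1Δ. Its lowest bin (chromosome III, from 1911000), which holds the mdn1 stretch printed above, had -1.49 in rif1Δ rad3Δ, against -0.58 in rif1Δ. In sib1, 13 of 16 bins were called below the median in rif1Δ rad3Δ and 9 were called lower than in rif1Δ.

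The other 3 of the 5 longest genes did not follow one pattern. tra2 (11443 bp), of the phosphatidylinositol kinase-like family, had -0.59 and -0.60 in rif1Δ rad3Δ, against -0.07 and -0.34 in rif1Δ, and the difference missed the threshold (limma, adjusted p = 0.0621). SPBPJ4664.02, a glycoprotein gene of 12171 bp with only 9 probes, had 0.27 and 0.48 in rif1Δ rad3Δ, against -0.01 and 0.34 in rif1Δ, and its arrays overlapped. tra1 is described with the gene ends below.

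**Figure D3:**
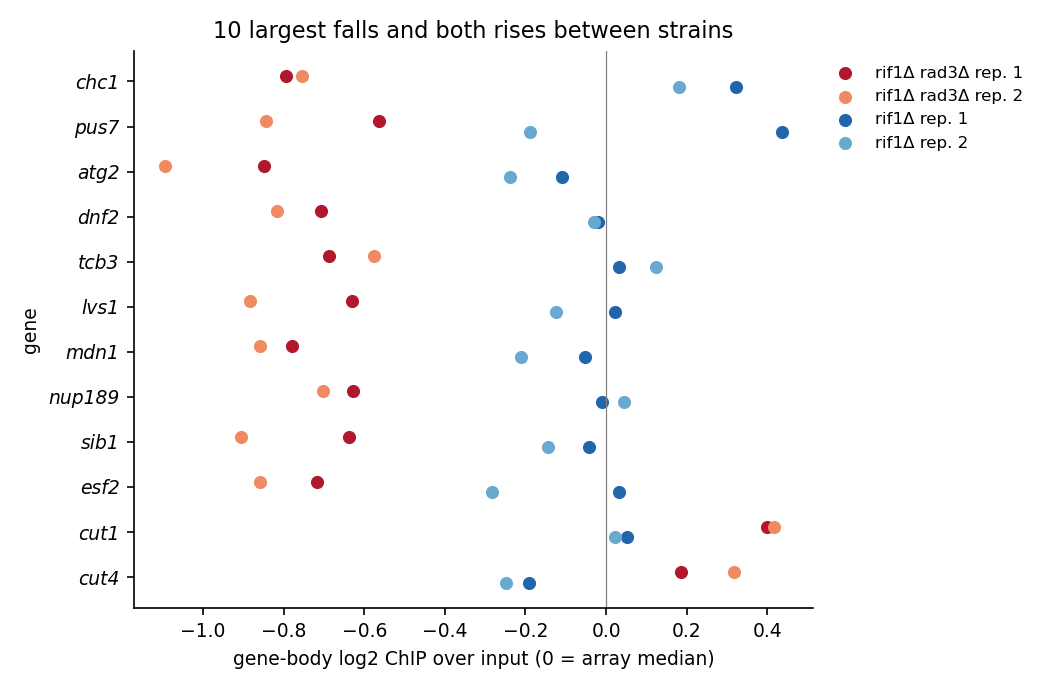
Gene-body log2 ChIP over input on each array for the 10 long genes with the largest falls and the 2 with rises between strains, rif1Δ rad3Δ drawn above rif1Δ in each row. The rif1Δ rad3Δ points lie at -0.56 or lower for the falls, and at 0.19 or higher for cut1 and cut4.

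The 2 calls in the other direction were cut4 and cut1. cut4, a platform subunit of the anaphase-promoting complex (chromosome II, 390910 to 396037), had 0.19 and 0.32 in rif1Δ rad3Δ, against -0.19 and -0.25 in rif1Δ (difference 0.47 ± 0.12 SE; limma, adjusted p = 0.0263). cut1, the separase that opens cohesin rings (chromosome III, 643409 to 649578), had 0.40 and 0.42 in rif1Δ rad3Δ, against 0.05 and 0.02 in rif1Δ (difference 0.37 ± 0.11 SE; limma, adjusted p = 0.0452). The call of cut1 was lost with any of the 4 arrays left out, and that of cut4 without either rif1Δ array or replicate 2 of rif1Δ rad3Δ. Both calls were also lost with normexp background correction, where 0 members and 8.03% of all genes were higher. In cut1, 4 of 7 bins were called above the array median in rif1Δ rad3Δ, and the highest had 1.04, against 0.01 in rif1Δ.

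The highest body in rif1Δ rad3Δ was kgd1, the alpha-ketoglutarate dehydrogenase of the citric acid cycle, with 0.65 and 0.68, against 0.30 and 0.33 in rif1Δ (limma, adjusted p = 0.0537 for the difference). bgs4, a septum and cell wall glucan synthase, followed with 0.69 and 0.35 in rif1Δ rad3Δ, against 0.25 and 0.59 in rif1Δ. The nucleoporin gene alm1 had 0.43 and 0.60 in rif1Δ rad3Δ, against 0.19 and 0.13 in rif1Δ, and the calcium channel gene cch1 had 0.35 and 0.53, against 0.08 and 0.10. Of these 4, only bgs4 had overlapping arrays, and none passed the test between strains.

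In rif1Δ the range over members was narrower, from -0.33 to 0.66, against -0.97 to 0.67 in rif1Δ rad3Δ. The SD of bodies over all genes was 0.427 and 0.436 in rif1Δ rad3Δ, against 0.265 and 0.288 in rif1Δ. The highest body there was bfr1, a brefeldin A efflux transporter, with 0.12 and 0.24 in rif1Δ rad3Δ, against 0.57 and 0.75 in rif1Δ (limma, adjusted p = 0.0300 between strains). ura1, which carries out the opening steps of pyrimidine synthesis, had -0.27 and -0.03 in rif1Δ rad3Δ, against 0.37 and 0.51 in rif1Δ (difference -0.59 ± 0.13 SE; limma, adjusted p = 0.0209). SPAC57A7.05 and the sulfite reductase gene sir1 were the other members called above the median in rif1Δ. The difference was called for SPAC57A7.05, at -0.40. That call was lost under several of the alternatives, and the difference ran from -0.59 to -0.28 over the settings. sir1 had 0.37 and 0.29 in rif1Δ rad3Δ, against 0.34 and 0.46 in rif1Δ, with overlapping arrays. The lowest bodies in rif1Δ, bgs2, vhc1, gcn2, atp25 and cyr1, lay between -0.33 and -0.27, and 0 of them was called against the array median.

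Median body signal in rif1Δ rad3Δ was lower in longer classes of genes, while the classes lay close together in rif1Δ. Median levels from the shortest to the longest class were 0.06 for 299 genes up to 1000 bp, 0.05 for 1785 genes up to 2000 bp, -0.04 for 1088 genes up to 3000 bp, -0.13 for 596 genes up to 5000 bp and -0.21 for the 117 longest. In rif1Δ the same classes had 0.04, -0.03, -0.01, -0.03 and -0.01. The share called lower between strains was 29.1% among the longest, 19.3% in the next class, then 14.0% and 10.3%, and 36 of 299 genes in the shortest class. Over all 3886 genes, Spearman's rho of length was -0.18 with the rif1Δ rad3Δ level and -0.01 with the rif1Δ level, across genes that share arrays and often probes. Within the 117 members, rho of length with the rif1Δ rad3Δ level was -0.00. Just inside the limit, 5 genes of 5006 to 5024 bp had levels of -0.70 to -0.25 in rif1Δ rad3Δ, and just outside it 5 genes of 4959 to 5000 bp had -0.57 to 0.24.

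**Figure D4:**
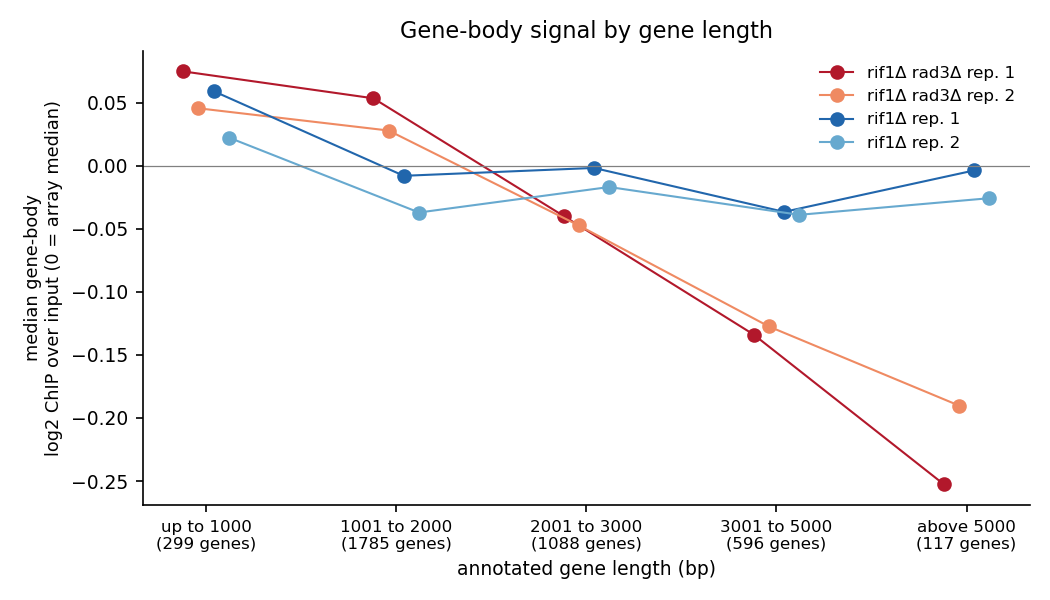
Median gene-body log2 ChIP over input by class of annotated gene length, one line per array. The rif1Δ rad3Δ lines descend to -0.25 and -0.19 in the longest class, and the rif1Δ lines stay between -0.04 and 0.06.

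Members were also split by coding span. The 59 measured genes with a coding span above 5000 bp had a median of -0.35 in rif1Δ rad3Δ, against -0.00 in rif1Δ, and 23 of them were lower in rif1Δ rad3Δ. The 58 others had a median of -0.15 in rif1Δ rad3Δ, against -0.01 in rif1Δ, and 11 of them were lower. The difference between these subsets was not tested. The median body A+T was 62.6% in members and 63.2% in the other genes. Across members, Spearman's rho of body A+T was -0.02 with the rif1Δ rad3Δ level and -0.43 with the rif1Δ level (n = 117 genes, which share arrays).

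The 5′ flank, the 1 kb before the annotated start, stood above the body in rif1Δ rad3Δ. The median flank had 0.19 and 0.08 in rif1Δ rad3Δ, against -0.09 and -0.09 in rif1Δ, over 113 members with enough flank probes. By sign, the mean flank was above the body in 90 of the 113 in rif1Δ rad3Δ, against 52 in rif1Δ. By limma, the flank minus body difference was called above 0 in rif1Δ rad3Δ for 49 members (21.2% of all genes) and below 0 for 2 (7.36% of all genes). It differed between strains for 24 members, all higher in rif1Δ rad3Δ (5.96% of all genes), and for 0 in the other direction (0.7% of all genes). In rif1Δ the flank was called above the body for 1 member, SPAC57A7.05 (1.24% of all genes), and below it for 1, bfr1 (1.76% of all genes). The median difference between strains was 0.44 for members and 0.16 for all genes. Of all genes, 0.881% were higher with the A+T trend removed and 0.959% with arrays scaled to one spread. The 24 became 6 with the trend of the signal with A+T removed and 6 with arrays scaled to one spread. With any of the 4 arrays left out fewer members, and fewer of all genes, were called. The median difference of members was then 0.40 to 0.49.

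SPAC57A7.05 had the tallest flank, at 2.60 and 2.67 in rif1Δ rad3Δ, against 1.40 and 1.28 in rif1Δ, which is 6.22-fold and 2.53-fold over the array median. Its flank minus body difference was higher by 1.70 ± 0.20 in rif1Δ rad3Δ (SE; limma, adjusted p = 0.00174). cdc20, the catalytic subunit of DNA polymerase epsilon, had a flank of 1.86 and 1.69 in rif1Δ rad3Δ, against 0.29 and 0.17 in rif1Δ, beside a body below the median in rif1Δ rad3Δ (-0.13 and -0.17, against 0.13 and 0.09). Its flank minus body difference was higher by 1.81 ± 0.20 (SE; limma, adjusted p = 0.0017). The flank of gcn1 had 0.88 and 1.17 in rif1Δ rad3Δ, against 0.12 and 0.36 in rif1Δ, over a body of -0.46 and -0.60, against -0.15 and -0.05. The 250 bases nearest the gene start are printed above for SPAC57A7.05 and gcn1. In all 3 genes the step down into the gene was larger in rif1Δ rad3Δ, the strain in which they were picked by this step.

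Further called differences included vps1301, a lipid transfer protein (1.46), the calcium pump gene pmc1 (1.49), bgs4 (1.28), mdn1 (1.20), the Ras GTPase-activating gene gap1 (1.15) and mcm5, a subunit of the replicative helicase (0.73), picked from the 24 after their values were seen. bfr1 reached its call the other way, with flank minus body at 0.16 and 0.22 in rif1Δ rad3Δ, against -0.96 and -0.66 in rif1Δ. The 2 members with a flank called below the body in rif1Δ rad3Δ were alm1 and stt4. alm1 and nup189 are transcribed away from each other with 197 bp between their starts, so most of the 5′ flank of alm1 is the body of nup189. The flank minus body difference of alm1 was -0.70 and -1.04 in rif1Δ rad3Δ, against -0.26 and -0.23 in rif1Δ.

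The 3′ flank, the 1 kb after the annotated end, was above the body by sign in 80 of 116 members in rif1Δ rad3Δ, against 60 in rif1Δ. By limma it was called above the body in rif1Δ rad3Δ for 41 members (14.4% of all genes) and below it for 7 (9.31% of all genes). Between strains 3 members differed, all higher in rif1Δ rad3Δ (0.388% of all genes, with 0.0776% lower), and 46 members had an unadjusted p below 0.05. The 3 became 0 with arrays scaled to one spread, 13 with loess (3.16% of all genes) and 14 with dim probes left out (2.38% of all genes). More members, and more of all genes, were called without either rif1Δ array or without replicate 1 of rif1Δ rad3Δ. The median difference of members was then 0.13 to 0.23. mot1, which removes TATA-binding protein from DNA, had a 3′ flank of 1.91 and 1.94 in rif1Δ rad3Δ, against 0.93 and 0.59 in rif1Δ. Its flank minus body difference was higher by 1.50 ± 0.21 in rif1Δ rad3Δ (SE; limma, adjusted p = 0.0116). tra1, of the SAGA complex (11069 bp), had a 3′ flank of 0.91 and 0.57 in rif1Δ rad3Δ, against 0.01 and -0.57 in rif1Δ, over a body of -0.38 and -0.64, against 0.16 and -0.17. Its flank minus body difference was higher by 1.53 ± 0.19 (SE; limma, adjusted p = 0.0099). ski3, of the Ski complex in RNA decay, named here after its values were seen, was the third at 1.36. The histone chaperone gene hip3 had a flank minus body of 1.63 and 1.39 in rif1Δ rad3Δ, against 0.47 and 0.73 in rif1Δ, and missed the threshold between strains (limma, adjusted p = 0.0584). In rif1Δ the 3′ flank was called above the body for 3 members (1.32% of all genes), cyr1, top2 (topoisomerase II) and the myosin gene myp2, and below it for 0 (0.802% of all genes). That of myp2 was 0.81 and 0.79 in rif1Δ rad3Δ, against 0.83 and 0.74 in rif1Δ.

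The slope along the body was taken as the 3′-end section minus the 5′-end section, each of 3 equal sections. In rif1Δ rad3Δ it was below 0 by sign for 64 of 116 members, and limma called 23 below 0 (9.6% of all genes) and 16 above (14.4% of all genes). In rif1Δ it was called for 0 members in either direction (0.0395% of all genes below 0 and 0.079% above), and 2 had an unadjusted p below 0.05. Between strains, 3 members had a lower slope in rif1Δ rad3Δ (1.34% of all genes) and 1 a higher one (0.751% of all genes). kgd1 had slopes of -0.91 and -1.40 in rif1Δ rad3Δ, against 0.66 and 0.28 in rif1Δ, so the 5′ side was the higher one in rif1Δ rad3Δ and the 3′ side in rif1Δ (difference -1.63 ± 0.26 SE; limma, adjusted p = 0.0178). cut4 had -1.06 and -1.35 in rif1Δ rad3Δ, against -0.14 and -0.10 in rif1Δ. cch1, named after its values were seen, differed by -0.95. snf22, the ATPase of the SWI/SNF remodeller, went the other way, with 0.85 and 1.15 in rif1Δ rad3Δ, against -0.09 and -0.33 in rif1Δ (difference 1.21 ± 0.24 SE; limma, adjusted p = 0.0303). Other steep slopes in rif1Δ rad3Δ were those of stt4, tor2, tra1 and alm1, high at the 3′ end, and of SPAC57A7.05, cut1 and mcm5, high at the 5′ end, none of which passed between strains. The 4 calls became 0 with loess and 0 with arrays scaled to one spread. Fewer members, and fewer of all genes, were called without replicate 1 of rif1Δ or replicate 2 of rif1Δ rad3Δ.

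**Figure D5:**
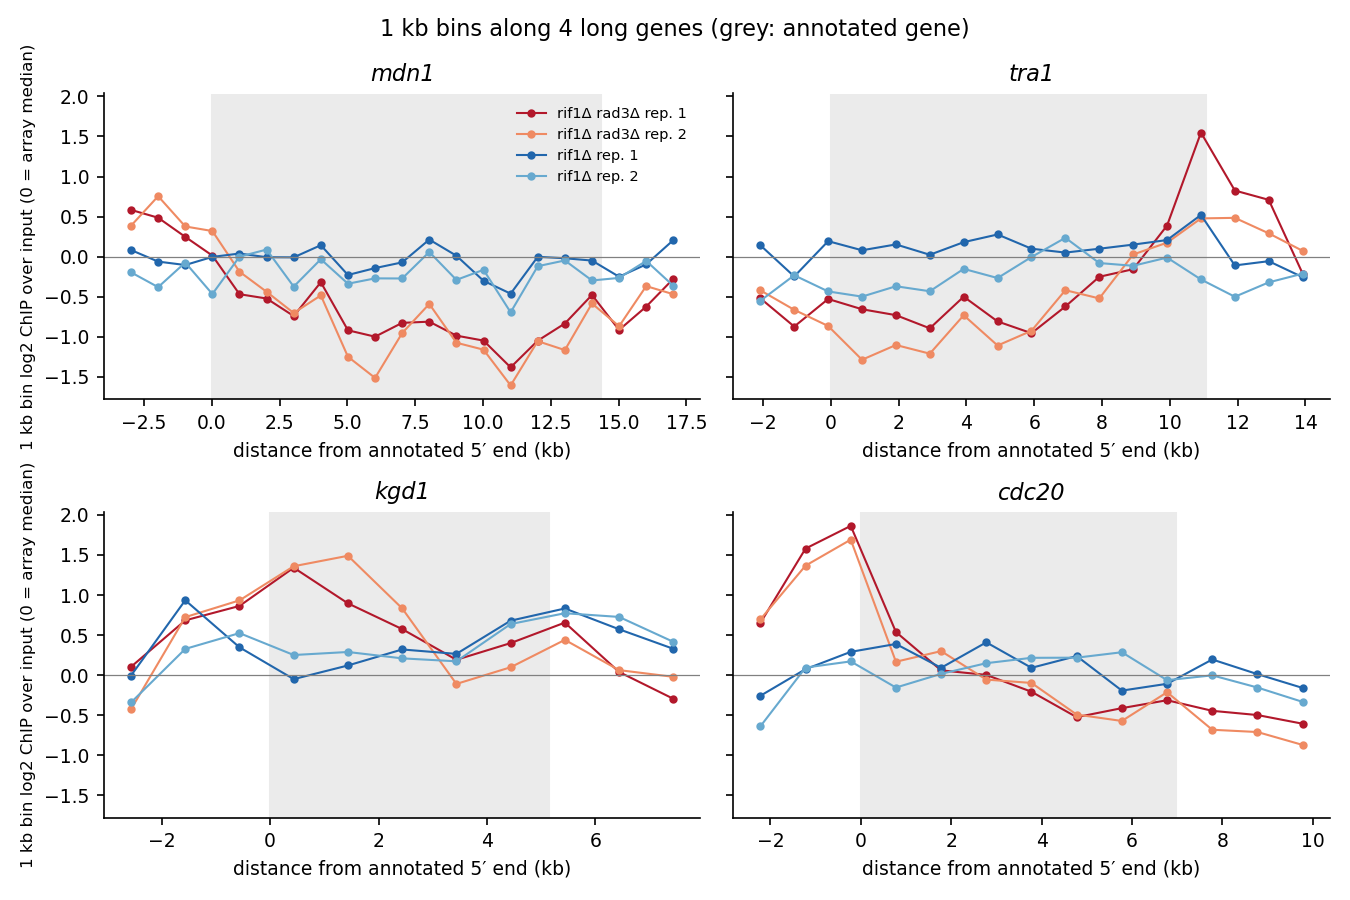
Log2 ChIP over input in 1 kb bins from 3 kb before to 3 kb after 4 long genes, by distance from the annotated 5′ end, with the gene in grey and one line per array. In rif1Δ rad3Δ the mean of both arrays is -1.49 in the lowest bin of mdn1, 1.01 in the bin at the 3′ end of tra1, where replicate 1 is the higher array, and 1.35 at the 5′ end of kgd1, and cdc20 drops from its 5′ flank into the body.

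The 721 bins of 1 kb inside members show how far the signal varied within a gene. By sign, 505 bins lay below the array median in rif1Δ rad3Δ, against 371 in rif1Δ. In rif1Δ rad3Δ, 319 bins passed the limma test as lower than the array median (24.4% of all bins) and 94 as higher (24.5% of all bins), and in rif1Δ 3 passed as lower (0.997% of all bins) and 17 as higher (4.38% of all bins). Between strains 158 were called lower in rif1Δ rad3Δ (8.31% of all bins) and 33 higher (10.3% of all bins). Of the 117 members, 85 had a bin called below the median in rif1Δ rad3Δ, 49 a bin called above it and 22 one of each. In 12 members every bin was called below, among them chc1, atg2, dnf2, tcb3, nup189, lvs1 and cyr1. These counts per gene were not made for shorter genes. A member holds several bins, so the counts describe the members and set them apart from no other genes. The median range between a member's highest and lowest bin was 0.70 in rif1Δ rad3Δ, against 0.36 in rif1Δ. It was not taken for other genes. Probe SDs over all 3 chromosomes were also larger in rif1Δ rad3Δ, at 0.58 and 0.65, against 0.43 and 0.44 in rif1Δ. The 158 lower bins became 19 with arrays scaled to one spread. They were also fewer with any of the 4 arrays left out, most of all without replicate 2 of rif1Δ rad3Δ. The share of all bins under these settings is not given, so these drops are not set apart from the genome.

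Counts by gene group stand beside 13.4% of all genes and 29.1% of members lower between strains, and 12.1% and 1.71% higher. The groups are small and were not tested as sets. Among them, the biosynthetic enzymes with several domains gave 4 lower of 5 measured long members between strains, and 0 lower of 2 shorter genes. sib1, cut6 (acetyl-CoA carboxylase), fas2 (fatty acid synthase alpha) and ura1 fell, with a list median of -0.65. cut6 had -0.65 and -0.40 in rif1Δ rad3Δ, against -0.05 and 0.31 in rif1Δ. glt1, glutamate synthase, had 0.17 and 0.37 in rif1Δ rad3Δ, against 0.20 and 0.24 in rif1Δ.

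Both long genes of the spliceosome core, brr2 and spp42, the helicase and scaffold of the U5 particle, were lower, as were 2 of 7 shorter genes on that list. brr2 had -0.67 and -0.59 in rif1Δ rad3Δ, against -0.00 and 0.07 in rif1Δ. Of 5 long nuclear pore genes, nup189 and nup211 were lower and 0 were higher, and of 12 shorter ones 1 was lower. alm1 differed by 0.36 without passing (limma, adjusted p = 0.0634), and nup184 and nup186 differed by -0.14 and -0.13. Among 4 ribosome assembly genes, mdn1 was lower, while utp10, utp20 and rrp5 differed by -0.02, -0.21 and 0.07.

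Of 5 kinases and pseudokinases of the PI3K-related family, tra1 was lower between strains and 0 were higher. Of 5 shorter genes on that list, 0 were lower and 2 were higher. The kinases tel1 (ATM), tor1 and tor2 differed by -0.32, -0.15 and -0.01. All 5 long gene bodies were below the array median in rif1Δ rad3Δ by their mean, and those of tel1, tra1 and tra2 passed the test (29.1% of all genes did). Of 4 motor and formin genes, myp2 was lower, cdc12 and myo2 differed by -0.31 and -0.35, and myo52 by 0.31, and these 3 did not pass the test. The RNA polymerase I subunit gene nuc1 was lower, with -0.60 and -0.34 in rif1Δ rad3Δ, against -0.05 and 0.12 in rif1Δ, and the RNA polymerase II subunit gene rpb1 differed by -0.18.

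Of 7 long members of the cell wall synthesis list, mok12, a spore wall alpha-glucan synthase, was lower, with -0.69 and -0.99 in rif1Δ rad3Δ, against -0.13 and -0.29 in rif1Δ. ags1, bgs1, bgs2, bgs4, mok13 and the Rho1 activator gene rgf3 did not pass, with differences from -0.28 to 0.22. Between the DNA polymerase genes pol1 and cdc20, 0 passed, with differences of -0.20 and -0.26, and the same held for the remodellers mot1 and snf22 and for the lipid transfer genes vps1301 and vps1302. In the lists of Gcn proteins and ubiquitin ligases, gcn1 and ubr1 were lower, and gcn2 and ubr11 differed by -0.35 and -0.06. Of the shorter genes on these lists, 1 of 4 and 3 of 6 were lower. Of the segregation genes, cut1 was higher, and mis4, the cohesin loader, differed by 0.09.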

How the data were processed

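Rad52 ChIP DNA and input DNA were hybridised on 4 tiling arrays, 2 per strain. Per the labels the input carried Cy5 and the ChIP DNA Cy3 on every array, and the label fields that speak of RNA were not followed. The deposited intensity values are Agilent Feature Extraction signals (version 10.7.3.1, per the submitters' processing notes), background-subtracted and linearly dye-normalized per the file headers. The deposited log10 ratio of red over green is made from the same signals, per the file headers. The authors' value table holds an uncentred ratio of green over red, with column medians of 0.967 to 1.01, and served as a check of sign alone. The array protocol of replicate 2 of rif1Δ rad3Δ was a ChIP protocol and that of the other arrays a CGH protocol, per the file headers.

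From these values log2(green/red) was computed and each array centred on its median over 42548 probes, after 93 probes marked as outliers in the files and the 2513 control spots were left out. Probes of rif1 and rad3 (43) were also left out of the fits. A gene body is the mean of at least 3 probes, a flank the mean of at least 2 within 1000 bp, and each end section of the body has at least 2. Strain means were fitted across all features with limma 3.58.1 (R 4.3.3), with Benjamini-Hochberg adjustment and a threshold of 0.05. The number of arrays limits the precision, and an exact permutation test of 2 arrays against 2 could not reach the threshold. Gene positions and sequences are RefSeq ASM294v3, whose coordinates match the probes except on the right part of chromosome I, which was not used.

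The members and gene lists were chosen with earlier results of these data known. Genes are named where they have one of the 10 largest falls or rises, the 5 highest or lowest bodies, the 5 largest spans, the 5 steepest slopes or the 3 tallest flanks in a strain, or stand in a list. Alternatives were another centring, normexp, loess, one spread, A+T trend removal, dim probes out, a replicate block, other probe and length rules, and each array left out. One upstream sequence is not reported here.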

Additional observations from a re-analysis of the deposited data

Results flagged for a closer look

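Results of 3 kinds stood out because the difference within a gene was itself different between the strains (limma, adjusted over all genes). The slope along the body differed for 4 of 116 members, 3 lower (1.34% of all genes) and 1 higher (0.751% of all genes), among them cut4 (-1.08), kgd1 (-1.63) and snf22 (1.21), as rif1Δ rad3Δ minus rif1Δ. The 5′ flank minus body was higher for 24 of 113 members (5.96% of all genes), among them SPAC57A7.05 (1.70), gcn1 (1.21), cdc20 (1.81) and bfr1 (0.999). The 3′ flank minus body was higher for 3 of 116 members (0.388% of all genes), among them tra1 (1.53) and mot1 (1.50). Their causes were not tested.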

How the results depend on the processing

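With arrays scaled to one spread, 12 members in place of 34 were lower in the gene body difference between strains (4.45% of all genes). In rif1Δ, 8 in place of 4 were called above the array median (10.3% of all genes) and 6 in place of 0 below it (8.26% of all genes). Under the same scaling, 0 in place of 4 had a changed slope. A higher 5′ flank minus body was called for 6 in place of 24 (0.959% of all genes), and a higher 3′ flank minus body for 0 in place of 3. Of the 1 kb bins inside members, 19 in place of 158 were lower. Flank counts here are of members higher in rif1Δ rad3Δ, and slopes are counted in both directions. Normexp left 1 changed slope, a lower one (0.198% of all genes), and 6 changed 3′ flanks (1.42% of all genes). Loess gave 0 slopes, 38 5′ flanks and 13 3′ flanks, leaving out dim probes gave 7 slopes and 14 3′ flanks, and removing the A+T trend gave 6 5′ flanks. The 5 equal sections of the body gave 11 slopes between the outer ones (6 lower and 5 higher, against 3.71% and 2.15% of all genes). Counting genes by coding span, 33 members of 59 were called below the median in rif1Δ rad3Δ and 1 was called above it in rif1Δ. With each array left out in turn the counts ran from 14 to 29 for bodies between strains, 44 to 54 for levels in rif1Δ rad3Δ, 0 to 6 for levels in rif1Δ, 2 to 5 for slopes, 11 to 15 for 5′ flanks, 3 to 11 for 3′ flanks and 59 to 94 for bins. Same-numbered arrays deviated together (r = 0.33), but 2 pairs do not show pairing, and the replicate block gave 47 lower bodies (23.3% of all genes), 10 higher levels in rif1Δ (11.8% of all genes) with 6 lower (9.8%), 24 slopes (16 lower and 8 higher, against 6.72% and 5.57% of all genes), 55 higher 5′ flanks (22.5% of all genes) with 1 lower (4.53%), 31 higher 3′ flanks (11.2% of all genes) with 6 lower (7.55%), and 283 lower bins. The median body difference of members stayed between -0.31 and -0.18 over these settings, and that of all genes between -0.10 and -0.01. Causes of these shifts were not tested.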
